A study of Mus musculus with 2 samples.

Results

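CXCR3 is the chemokine receptor that activated T cells, NK cells and plasmacytoid dendritic cells carry, and CXCL9 and CXCL10 are ligands of it. The 3 genes examined here, Cxcl9, Cxcl10 and Cxcr3, were taken by symbol from the 32285 genes of the count matrices, and all 3 have a row in both libraries. They were chosen by name with earlier results of the same UMI counts known, the NP over saline ratios per cell class, so those ratios are given as a description. Another ligand, Cxcl11, was not analysed here. The questions were which cells of the lung held ligand RNA, which carried the receptor, how many cells were positive and how much each positive cell held.

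The ligands are secreted proteins that draw CXCR3+ lymphocytes along a gradient. Transcription of both is induced by IFN-γ, the cytokine of T and NK cells, and Cxcl10 is also induced by type I interferons and by NF-κB. The receptor signals through Gi proteins, which Gnai2 and Gnai3 encode, and is desensitized by receptor kinases and arrestins. In T cells the transcription factor T-bet drives Cxcr3.

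The data were 2 single-cell RNA libraries of lungs from female BALB/cJ mice that carried 4T1 tumors, an orthotopic mouse mammary carcinoma that spreads to the lung. The mice were 12 weeks old at inoculation with 100000 cells, and the lungs were taken 14 days later. One library came from mice given intravenous saline and the other from mice given poly(lactide-co-glycolide) (PLG) nanoparticles (NPs) without a drug by the same route. Doses were given every 3 days from day 1 after inoculation, 5 in all. By the labels, 4 mice were pooled for each library. With 1 library per condition there was no replicate, so no test was made, and every interval below is a 95% interval that covers counting error only. The intervals of levels and ratios treat UMIs as independent. UMIs of a gene clump in few cells, so these intervals are too narrow even for the spread between cells of 1 library. The spread between mice is not covered by any interval.

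The saline library held 8662 cells with 77814108 UMIs and the NP library 8333 cells with 72383286 UMIs, at medians of 6474.5 and 6008 UMIs per cell. Cells of both were clustered together without the 3 genes, and clusters were named by marker genes. The classes were neutrophils, monocytes, alveolar macrophages, plasmacytoid dendritic cells (pDCs), T, NK and B cells, basophils, endothelial, stromal, epithelial and erythroid cells, with 5 clusters left unnamed. The saline and NP neutrophils shared their clusters in different proportions. The clusters led by Hist1h4i, Prok2 and Csta3 held 33.4%, 22.9% and 23.4% of saline neutrophils and 13.4%, 11.9% and 7.78% of NP neutrophils. Those led by Rsad2, Ptgs2 and Gm13822 held 27.3%, 15.1% and 13.3% of NP neutrophils and 1.52%, 5.14% and 4.40% of saline neutrophils. The libraries shared 21 cell barcodes, 0.242% of saline and 0.252% of NP cells. Doublets were kept.

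Cxcl9 and Cxcl10 are neighbors on mouse chromosome 5 (GRCm38). Cxcl9 lies at chr5:92321347-92328079 and Cxcl10 at chr5:92346638-92348889, both on the minus strand, with 18558 bases between them. Cxcl9 has 4 exons and Cxcl10 has 3. Cxcl10 overlaps Art3 on the opposite strand. Cxcr3 lies at chrX:101731535-101734269 on the minus strand and has 2 exons. The 250 bases before the start of each ligand gene are shown because both ligands were higher in the NP library and are known interferon targets (RefSeq, GRCm38.p6, minus strand, chr5:92328080-92328329 for Cxcl9 and chr5:92348890-92349139 for Cxcl10). Capitals mark matches to motifs searched on both strands.
Cxcl9: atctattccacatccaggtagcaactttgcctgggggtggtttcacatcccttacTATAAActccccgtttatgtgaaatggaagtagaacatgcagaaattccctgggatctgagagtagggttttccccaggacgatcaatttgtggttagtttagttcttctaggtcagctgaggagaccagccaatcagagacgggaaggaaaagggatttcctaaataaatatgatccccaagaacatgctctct
Cxcl10: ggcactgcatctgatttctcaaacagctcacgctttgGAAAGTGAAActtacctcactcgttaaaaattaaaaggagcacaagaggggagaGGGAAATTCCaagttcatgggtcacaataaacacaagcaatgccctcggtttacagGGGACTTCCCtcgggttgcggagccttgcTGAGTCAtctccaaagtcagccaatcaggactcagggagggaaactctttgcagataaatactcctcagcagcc
In the Cxcl10 window the search found 1 interferon-stimulated response element (ISRE, GAAA, any 2 bases and GAAA) that begins 213 bases before the start, 2 matches to the κB consensus at 159 and 103 bases, and 1 AP-1 site (TGANTCA) at 74 bases. In the Cxcl9 window it found only a TATAAA at 195 bases. Neither window held the letters of the GAS element (TTCNNNGAA). The 250 bases before the RefSeq start of Cxcr3 (chrX:101734148-101734397) held none of the 5 motifs. That start lies inside the gene span given above, so the Cxcr3 window overlaps this span, unlike those of the ligands. Of 32851 mouse promoters of this length, 2.98% held the ISRE, 7.02% the GAS element, 6.75% the AP-1 site, 12.4% TATAAA and 3.90% the κB consensus, and 0.493% held the last at least 2 times. The search took exact letters only, so a window without a match can still hold elements that differ from these motifs. The matches describe letters, and no binding was measured here.

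Over all cells, both ligands were higher in the NP library and the receptor was nearly level. Cxcl9 had 36 UMIs in 14 of the saline cells and 1753 UMIs in 105 of the NP cells. That is 0.463 UMIs per 1000000 UMIs (CPM; 95% interval 0.324 to 0.640) against 24.2 CPM (23.1 to 25.4), a log2 ratio of 5.71 (5.24 to 6.23). Cxcl10 had 266 UMIs in 46 saline cells and 2944 UMIs in 230 NP cells. Its level was 3.42 CPM (3.02 to 3.85) in saline and 40.7 CPM (39.2 to 42.2) in NP, a log2 ratio of 3.57 (3.39 to 3.76). Cxcr3 had 213 UMIs in 126 saline cells and 246 UMIs in 117 NP cells. Its levels of 2.74 and 3.40 CPM gave a log2 ratio of 0.31 (0.04 to 0.58), which was -0.06 relative to 0.37, the median over genes that had 200 UMIs or more. Both ligands remained higher after the same shift (Cxcl9 by 5.34), and within classes the median was between -0.13 and 0.03. The ligands were thus rare transcripts in both libraries, found in 1.26% (Cxcl9; 1.03% to 1.52%) and 2.76% (Cxcl10; 2.42% to 3.13%) of NP cells. The corresponding saline shares were 0.162% (0.0884% to 0.271%) and 0.531% (0.389% to 0.708%).

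By class, the ligand RNA was mainly in the monocyte class for Cxcl9 and in neutrophils for Cxcl10. No cluster was named conventional dendritic cells. The monocyte class included a cluster led by Aif1 and MHC class II genes and some mature dendritic cell-like cells, both described below. In the NP library monocytes held 68.5% of all Cxcl9 UMIs and neutrophils 27.3%. Alveolar macrophages followed with 1.43%. For Cxcl10 the order was reversed, with 60.4% of NP UMIs in neutrophils and 24.4% in monocytes, and a further 6.52% in endothelial cells and 3.87% in stromal cells. In the saline library no class held most of the Cxcl10. Monocytes had 25.9% of its 266 UMIs, neutrophils 24.4%, alveolar macrophages 19.5%, T cells 11.7% and pDCs 6.77%. Cxcr3 was held mainly by T cells, with 51.2% of its UMIs in saline and 54.5% in NP. These shares follow the number of cells of each class in a library as well as the level per cell.

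**Figure D1:**
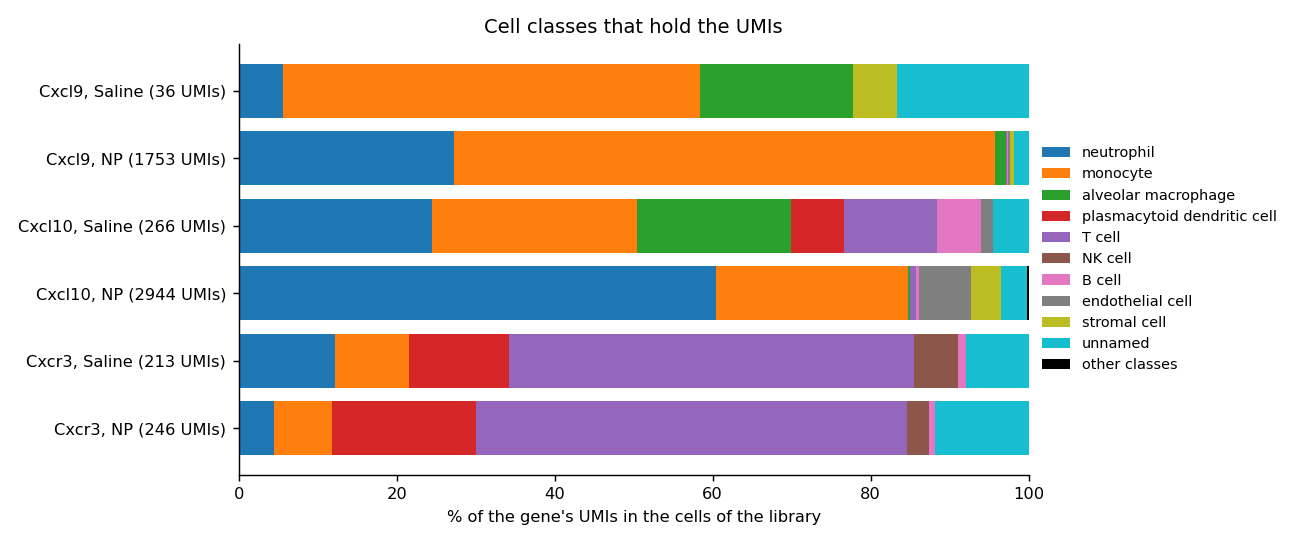
Share of the UMIs of Cxcl9, Cxcl10 and Cxcr3 (x axis, % of the gene's UMIs over all cells of the library) held by each cell class, one bar per gene and library with its total UMIs. Monocytes hold 68.5% of NP Cxcl9 and neutrophils 60.4% of NP Cxcl10, while T cells hold 51.2% and 54.5% of Cxcr3.

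In monocytes, Cxcl9 had 19 UMIs in 4 of 785 saline cells and 1201 UMIs in 75 of 1521 NP cells. The level was 1.62 CPM (0.977 to 2.53) in saline and 53.8 CPM (50.8 to 57.0) in NP, a log2 ratio of 5.05 (4.40 to 5.79). Of the saline UMIs 16 were in 1 cell, and without the highest cell of each library the log2 ratio was 7.60. The share of positive monocytes was 0.510% (0.139% to 1.30%) in saline and 4.93% (3.90% to 6.14%) in NP. After thinning each cell to 1000 UMIs it was 0 of 785 cells in saline, where 3 counts of the total allow a share of up to 0.382%, and 2.31% (1.61% to 3.19%) in NP. Here and below such a limit from a count of 0 covers cells with a UMI, not cells that express the gene. Positive NP monocytes held 16.0 UMIs on average, with a median of 8 and a highest of 91. Median depths were near each other, 15117 UMIs for saline and 14780 for NP monocytes.

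Within the NP monocytes, Cxcl9 was uneven between clusters. A cluster led by Aif1 and the MHC class II genes H2-Ab1 and H2-Aa, which present antigen to CD4 T cells, held 961 of the 1201 UMIs in 54 of its 421 cells (12.8%; 9.78% to 16.4%). The 132 saline cells of that cluster held 2 UMIs. The cluster led by F13a1 and Ccr2, markers of classical monocytes, held 236 UMIs in 20 of 734 NP cells (2.72%; 1.67% to 4.18%) against 17 UMIs in 2 of 557 saline cells. The third, led by Cd300e and Treml4, markers of non-classical monocytes, had 4 UMIs of Cxcl9 and 4 of Cxcl10 in 366 NP cells and none of either in 96 saline cells. On a finer scale, a cluster of phagocytes with H2-Ab1, H2-Aa and Cd74 among its leading genes held 811 Cxcl9 UMIs in 49 of 337 NP cells (14.5%; 10.9% to 18.8%) and 2 UMIs in 87 saline cells. A finer cluster led by Ifi47, Ifi204 and Iigp1 went the other way. It held 16 UMIs in 27 saline cells (39.7 CPM) and 67 UMIs in 11 of 254 NP cells (16.8 CPM). All 16 saline UMIs were in 1 cell. A mature dendritic cell-like finer cluster of 30 NP cells, led by Ccl5, Il4i1 and Fscn1, held 163 Cxcl9 UMIs in 5 cells and had no saline cell. Without it, NP monocytes held 1039 Cxcl9 UMIs and the log2 ratio was 4.87 (4.22 to 5.61).

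Cxcl10 in monocytes had 69 UMIs in 9 saline cells and 718 UMIs in 70 NP cells. The level was 5.89 CPM (4.58 to 7.46) in saline and 32.2 CPM (29.9 to 34.6) in NP, a log2 ratio of 2.45 (2.09 to 2.83). A single saline cell held 42 of the 69 UMIs, and a single NP cell 148 of the 718. Positive cells were 1.15% (0.526% to 2.17%) in saline and 4.60% (3.60% to 5.78%) in NP, and 0.255% (0.0309% to 0.917%) and 1.38% (0.858% to 2.11%) after thinning. The mean per positive cell was 7.67 UMIs in saline and 10.3 UMIs in NP, so in this class the share of positive cells differed more between libraries than the amount per positive cell. The F13a1-led cluster held most of it, with 523 UMIs in 41 NP cells against 191 UMIs in 25 NP cells of the Aif1-led cluster. A finer cluster of phagocytes led by the interferon response genes Rsad2, Ifit1 and Ifit2 held 44 Cxcl10 UMIs in 3 of 6 saline cells and 282 UMIs in 13 of 22 NP cells. The saline cell with 42 UMIs was 1 of these 3. Cxcl10+ cells of this kind were thus found in both libraries, in saline mainly through that cell.

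In neutrophils, Cxcl10 had 65 UMIs in 15 of 5587 saline cells and 1777 UMIs in 85 of 3083 NP cells. The level was 1.35 CPM (1.05 to 1.73) in saline and 73.8 CPM (70.4 to 77.3) in NP. Positive neutrophils were 0.268% (0.150% to 0.442%) in saline and 2.76% (2.21% to 3.40%) in NP, and 0.0717% (0.0195% to 0.183%) and 1.78% (1.35% to 2.32%) after thinning. Both the share and the amount differed, since positive cells held a mean of 4.33 UMIs (median 1) in saline and 20.9 UMIs (median 6) in NP. Of the 65 saline UMIs 38 were in 1 cell and the other 14 cells held at most 6 each. In NP 37 cells held at least 10 UMIs, with 156, 141 and 138 in the highest.

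Cxcl9 in neutrophils was rarer and more concentrated. It had 2 UMIs in 1 saline cell and 478 UMIs in 15 NP cells, of which 11 held 10 UMIs or more. The highest held 182, 69 and 47 UMIs, and 2 cells held more than 50% of the class total. The mean of 31.9 UMIs per positive NP neutrophil was 21.1 without the highest cell. The log2 ratio of 8.31 has an interval of 7.04 to 11.95, and it rests on setting the 2 saline UMIs to 3.

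The neutrophil values depended on 1 cluster. The cluster led by Rsad2 held 476 of the 478 Cxcl9 UMIs and 1544 of the 1777 Cxcl10 UMIs of NP neutrophils, in 13 and 71 of its 842 cells. Its 85 saline cells held no UMI of either gene, which allows a share of up to 3.53% of those cells. Without this cluster, the neutrophil log2 ratio of Cxcl10 was 3.09, and Cxcl9 had 2 UMIs in each library, too few for a ratio. Of the rest, 158 Cxcl10 UMIs were in 2 NP cells of a cluster led by Gm13822 and Rtp4, with 138 in 1 cell. In the Hist1h4i-led cluster, which held 53 of the 65 saline UMIs, Cxcl10 was at 7.2 CPM (5.39 to 9.41) in saline and 18.8 CPM (12.5 to 27.2) in NP. Both levels rest on few cells. In saline 1 cell held 38 of the 53 UMIs, and in NP 1 of 4 positive cells held 19 of 28 UMIs. The NP neutrophils with at least 10 ligand UMIs carried neutrophil transcripts. All 11 such Cxcl9 cells and all 37 such Cxcl10 cells had UMIs of S100a8, S100a9, Csf3r, Cxcr2 or Retnlg. So did 1442 of 1446 NP monocytes without Cxcl9, so such a UMI alone does not separate the classes. The pooled levels were 103737 and 208468 CPM in the 11 and 37 cells and 318207 and 319775 CPM in the NP neutrophils without the ligand. In those monocytes the level was 2983 CPM. The summed level of 5 monocyte markers (Ccr2, F13a1, Fn1, Ms4a6c and Ms4a4c) in the 11 and 37 cells was 83.6 and 9.91 CPM, against 12.9 and 13 CPM in NP neutrophils without the ligand and 4426 CPM in NP monocytes without Cxcl9. Of the 11 Cxcl9 cells 3 had a UMI of these 5 markers, at up to 971 CPM, and the neutrophil transcripts were at 5342 CPM in the lowest of them, within the range of the Cxcl9-high NP monocytes (249 to 37099 CPM). Over all 15 Cxcl9+ neutrophils, the summed non-classical monocyte markers differed by a log2 of 1.41 (1.03 to 1.76) and the neutrophil markers by -0.64 from the negative cells. MHC class II genes were at 335 CPM in the 11 Cxcl9 cells and 50.2 CPM in neutrophils without Cxcl9. The part of other cells' RNA in these cells was not tested beyond these levels.

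**Figure D2:**
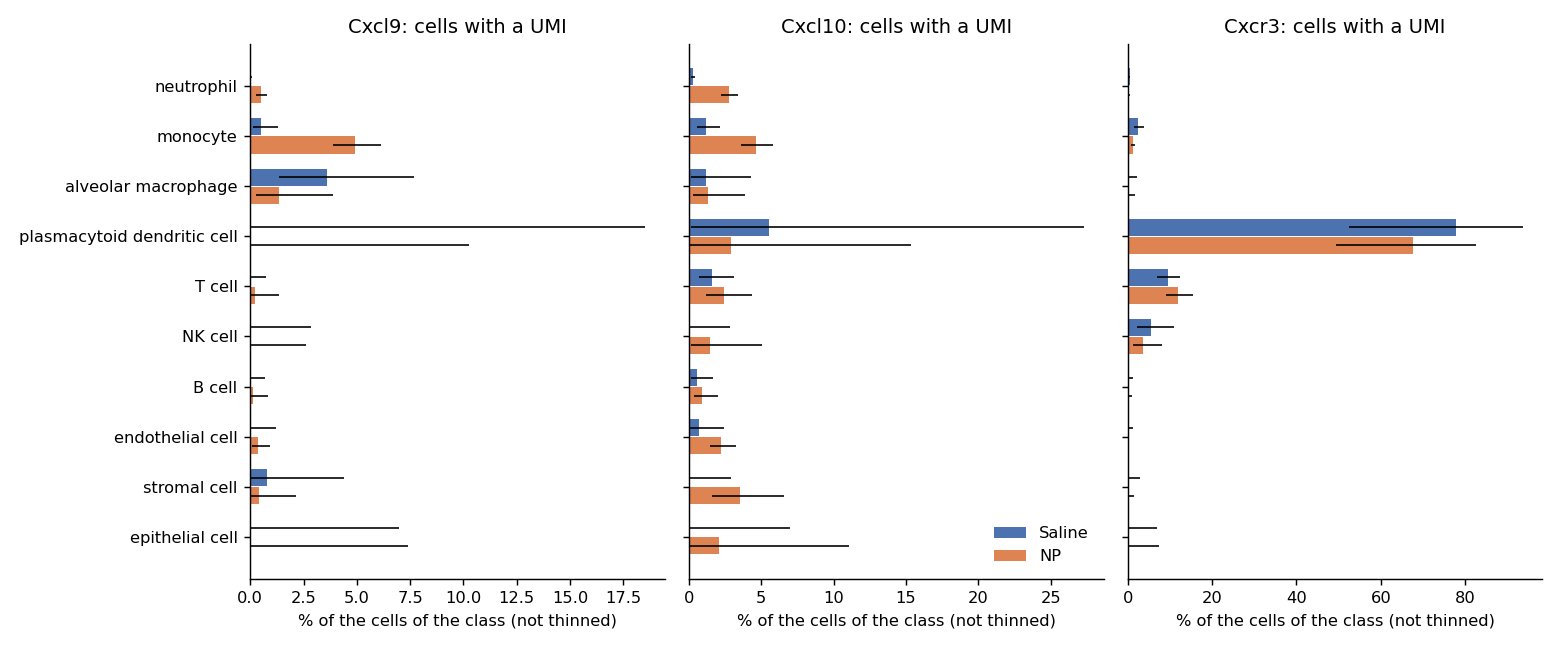
Share of the cells of each class with at least 1 UMI (x axis, %, not thinned) for Cxcl9, Cxcl10 and Cxcr3 in saline (blue) and NP (orange), with exact 95% intervals. The ligand shares of monocytes and neutrophils are higher in NP, and the Cxcr3 share is highest in pDCs and next in T cells, with overlapping intervals between libraries. The 3 panels have different x scales.

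Outside the phagocytes, endothelial and stromal cells carried Cxcl10 in the NP library and little Cxcl9. Endothelial cells had 4 Cxcl10 UMIs in 2 of 298 saline cells and 192 UMIs in 25 of 1120 NP cells. The level was 2.82 CPM (0.769 to 7.23) in saline and 35.5 CPM (30.7 to 40.9) in NP, a log2 ratio of 3.65 (2.27 to 5.54). Positive endothelial cells were 0.671% (0.0814% to 2.40%) in saline and 2.23% (1.45% to 3.28%) in NP, with intervals that overlap, and 0.338% and 1.18% after thinning. Of the NP UMIs 120 lay in 7 of 151 cells of a finer cluster led by Iigp1 and Gbp5, of which the saline library had 2 cells. Cxcl9 in endothelial cells was 0 UMIs in saline and 5 UMIs in 4 NP cells. Stromal cells had no Cxcl10 UMI among 125 saline cells, which allows a share of up to 2.40%, and 114 UMIs in 9 of 256 NP cells. Against a floor of 3 saline UMIs this is at least 17.6-fold higher in NP, a log2 ratio of 4.14 with a counting interval from 3.81. Of the 114 UMIs 59 were in 1 cell, without which the log2 ratio was 3.09. The stromal cluster led by Tagln and Acta2, genes of contractile cells, held 43 UMIs in 4 of 59 NP cells. An unnamed cluster led by Fendrr and Plvap, which carried both neutrophil and endothelial markers, held 81 UMIs, of which 73 were in 1 cell.

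Alveolar macrophages and pDCs had higher Cxcl10 in saline, each through 1 cell. Alveolar macrophages held 52 Cxcl10 UMIs in saline, of which 51 were in 1 cell, and 7 UMIs in 3 NP cells. In pDCs 1 saline cell held all 18 UMIs and 1 NP cell held 1 UMI. Cxcl9 in alveolar macrophages was 7 UMIs in 6 of 166 saline cells and 25 UMIs in 3 of 224 NP cells. Its log2 ratio of 1.27 (0.02 to 2.72) was -0.57 without the highest cell of each library, which held 20 UMIs in NP. T cells held 31 Cxcl10 UMIs in 8 saline cells and 21 in 10 NP cells, a log2 ratio of -0.36 (-1.23 to 0.48). Of the saline UMIs 10 were in a finer cluster led by Areg, Il1rl1 and Calca, whose markers best matched type 2 innate lymphoid cells. Finer clusters with neutrophil or monocyte markers also lay among the T and NK cells, so these classes were not pure.

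B cells were taken for comparison as a class that should hold little of the ligands. They had 0 and 1 Cxcl9 UMIs among 528 saline and 651 NP cells, and 15 and 11 Cxcl10 UMIs (4.27 and 2.83 CPM). Of the 15 saline UMIs 12 were in 1 B cell. Their Cxcl10 shares were 0.568% (0.117% to 1.65%) in saline and 0.922% (0.339% to 2.00%) in NP at median depths of 4610.5 and 4542 UMIs, and 0.189% and 0.154% after thinning. The thinned NP shares of neutrophils, monocytes, endothelial and stromal cells (2.41%; 0.889% to 5.17%) were above the NP share of B cells, and the thinned NP intervals of endothelial cells (0.627% to 2.00%) and of B cells (0.00389% to 0.853%) overlapped. The thinned NP shares of T cells (0.480%) and alveolar macrophages (0.450%) lay within the B cell interval, and no thinned NK cell was positive. RNA in barcodes under 50 UMIs, which are mostly empty droplets, held Cxcl9 at 1.15 CPM in saline and 13.1 CPM in NP and Cxcl10 at 2.99 and 22.8 CPM, so free ligand RNA was also higher in the NP library. In saline the 4.27 CPM of Cxcl10 in B cells lay within the interval of the free RNA level (1.59 to 5.11). In NP, B cells were under the free RNA level for both ligands, with Cxcl9 at 0.257 CPM and Cxcl10 at 2.83 CPM. A level among empty droplets is not the level that free RNA adds to a cell, because the share of free RNA in a cell was not measured. The part of free RNA in the UMIs of B cells was not tested.

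In order of NP level, Cxcl9 was at 53.8 CPM in monocytes, 19.9 CPM (18.1 to 21.7) in neutrophils, 5.95 CPM (2.72 to 11.3) in stromal cells, 5.82 CPM (3.77 to 8.59) in alveolar macrophages and under 1 CPM in endothelial, T and B cells. Stromal cells and alveolar macrophages did not differ beyond counting error, and both were under the 13.1 CPM of NP barcodes under 50 UMIs. In stromal cells 1 cell held all 9 Cxcl9 UMIs, and in alveolar macrophages 1 cell held 20 of 25, so these levels rest on single cells. Cxcl10 was at 75.3 CPM (62.1 to 90.5) in stromal cells, 73.8 CPM in neutrophils, 35.5 CPM in endothelial cells, 32.2 CPM in monocytes and 6.81 CPM (4.21 to 10.4) in T cells. Stromal cells and neutrophils did not differ beyond counting error, nor did endothelial cells and monocytes. Of the 114 stromal Cxcl10 UMIs 59 were in 1 cell, so the place of stromal cells in this order rests on that cell. In saline, the intervals of Cxcl9 in monocytes, alveolar macrophages (2.41 CPM; 0.971 to 4.98) and stromal cells (2.86 CPM; 0.346 to 10.3) overlapped, and neutrophils were lowest of the classes with a UMI at 0.0417 CPM (0.00505 to 0.151).

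**Figure D3:**
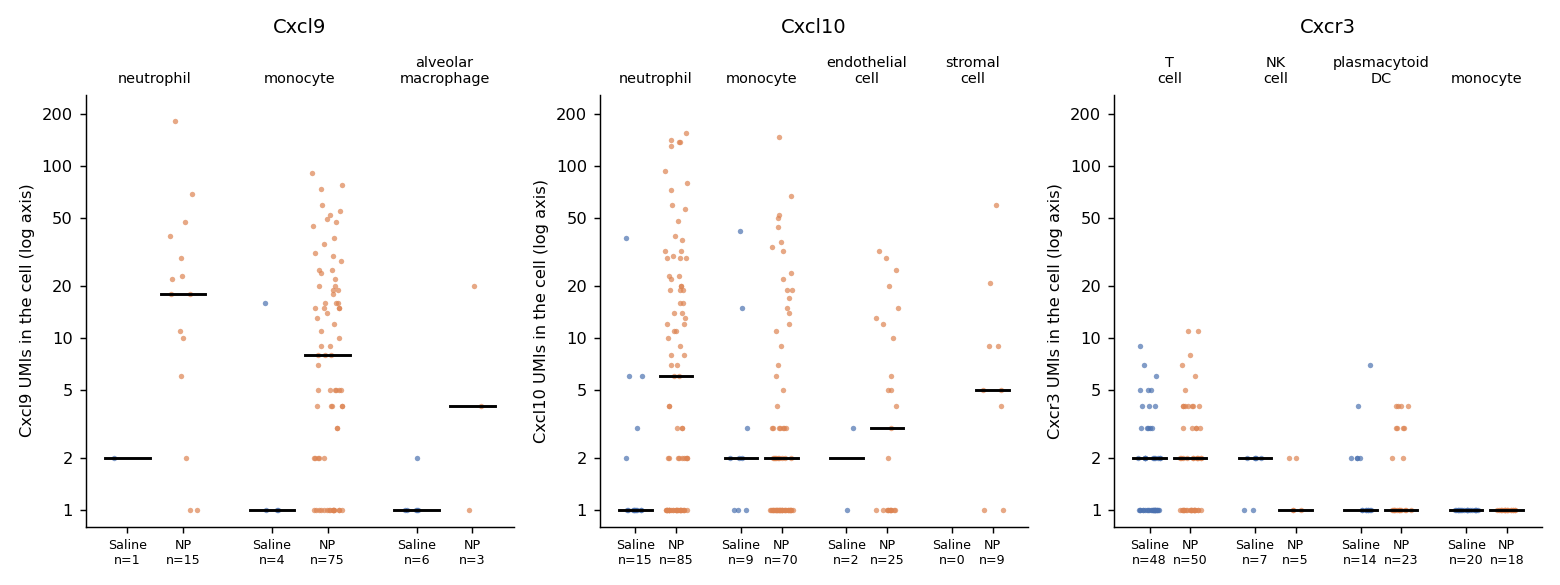
UMIs of each gene in every positive cell (y axis, log scale), by class and library, with n the number of positive cells and the black line their median. NP neutrophils reach 182 UMIs of Cxcl9 and 156 of Cxcl10, while no T cell holds more than 11 UMIs of Cxcr3.

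A few cells held most of the ligand RNA. Of the 1753 NP UMIs of Cxcl9, 90.3% were in the 49 cells with at least 10 UMIs, and 13 of 105 positive cells held more than 50%. Of the 2944 NP UMIs of Cxcl10, 87.9% were in 65 cells with at least 10 UMIs, while 96 of the 230 positive cells had 1 UMI. In saline, 1 cell had at least 10 UMIs of Cxcl9 and 7 cells at least 10 UMIs of Cxcl10, in 6 classes. Cxcr3 was spread over many low cells, since 87 of 126 saline and 70 of 117 NP positive cells had 1 UMI.

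The 2 ligands were mostly in different cells. In NP 18 cells held both, which is 17.1% (10.5% to 25.7%) of the 105 Cxcl9+ cells, against 2.58% (2.25% to 2.94%) with Cxcl10 among the other cells. Of the 49 cells with at least 10 Cxcl9 UMIs 35 had no Cxcl10, and of the 65 cells with at least 10 Cxcl10 UMIs 60 had no Cxcl9. Only 5 cells reached 10 UMIs of both. Within NP neutrophils 6 of the 15 Cxcl9+ cells also had Cxcl10 (40%; 2.58% in the rest), and within NP monocytes 9 of 75 did (12%; 4.22% in the rest). Saline had 1 cell with both.

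**Figure D4:**
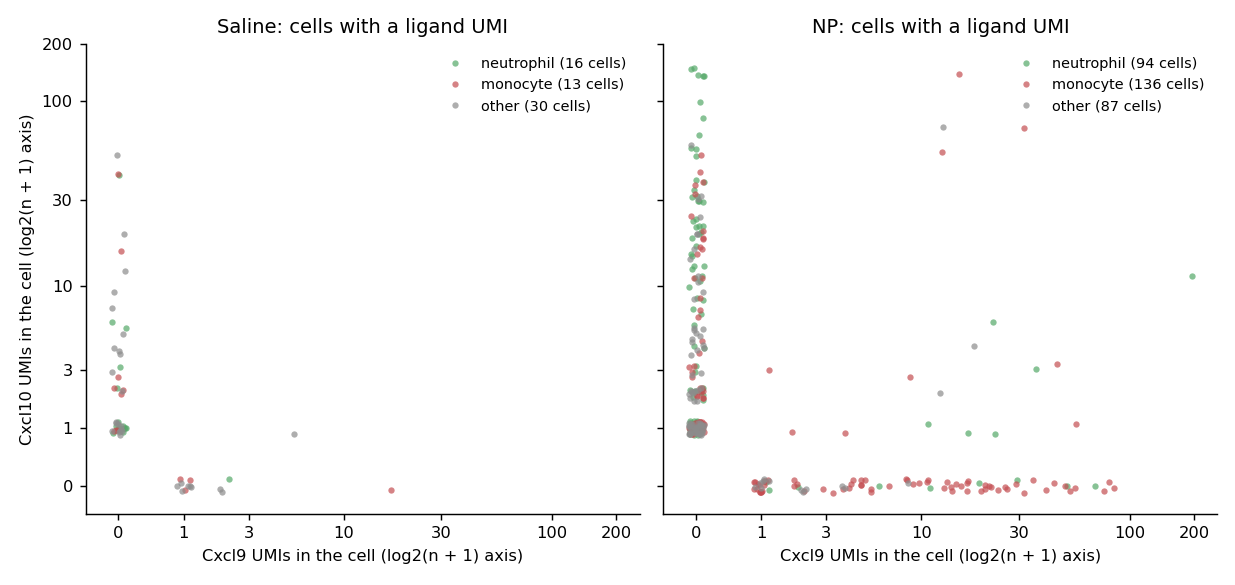
Cxcl9 UMIs (x axis) against Cxcl10 UMIs (y axis) in each cell with a ligand UMI, both on a log2(n + 1) scale with a small random shift, in saline (left) and NP (right). Most NP cells lie along one axis, with 35 of 49 Cxcl9-high cells at 0 Cxcl10 and 60 of 65 Cxcl10-high cells at 0 Cxcl9.

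Ligand-positive cells were next compared with negative cells of the same class for 2 lists of interferon response genes. One list holds guanylate-binding proteins (GBPs), immunity-related GTPases and other genes that respond to IFN-γ, and the other holds type I interferon response genes such as Ifit1, Rsad2 and Isg15. In NP neutrophils, 14 of 15 genes of the GBP list with at least 50 UMIs were at least 2-fold higher in the 85 Cxcl10+ cells than in the 2998 negative cells, beside 11.2% of all genes tested. For the type I list it was 21 of 22. Of all genes 12.7% were at least 2-fold lower. In Cxcl9+ neutrophils the counts were 14 of 15 and 19 of 22, beside 18.1% of all genes higher and 42.8% lower, with 15 positive cells. In NP monocytes the GBP list had 13 of 21 genes higher in Cxcl9+ cells and the type I list 8 of 23, beside 1.86% of all genes higher and 6.35% lower. In Cxcl10+ monocytes the counts were 15 of 21 and 16 of 23, beside 2.36% higher and 5.85% lower. In NP endothelial cells 7 of 22 GBP-list genes and 5 of 18 type I genes were higher in Cxcl10+ cells, beside 2.88% higher and 14.1% lower.

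In saline, the 15 Cxcl10+ neutrophils were a mixed group. Of these, 3 cells with 1 Cxcl10 UMI each had 57815, 35281 and 29578 UMIs of all genes, against 3721 UMIs in the cell with the most Cxcl10, and 4 of 4 B cell markers were 2-fold higher than in the negative cells (610 against 17.7 CPM summed). In this pooled group 0 of 20 type I genes were 2-fold higher and 15 were 2-fold lower, beside 17.1% higher and 27.3% lower over all genes, and the part of those 3 cells in these counts was not tested. In the 9 Cxcl10+ saline monocytes 18 of 22 type I genes and 9 of 14 GBP-list genes were at least 2-fold higher, beside 7.88%.

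The Rsad2-led cluster is itself led by interferon genes, so the comparison was repeated within clusters of the NP library. Inside that cluster, the summed GBP list was at 10044 CPM in the 71 Cxcl10+ cells and 4844 CPM in the 771 others, a log2 difference of 1.05 (1.00 to 1.11), with 7 of 15 genes 2-fold higher beside 5.23% of all genes. The type I list differed by 0.81 (0.75 to 0.86), with 6 of 22 genes. In the 13 Cxcl9+ cells the differences were 1.47 for the GBP list and 1.32 for the type I list, with 10 of 15 and 16 of 22 genes beside 14.9% of all genes. In the F13a1-led monocyte cluster, 17 of 19 GBP-list genes and 17 of 23 type I genes were higher in Cxcl10+ cells, beside 2.97% of all genes, and 18 of 19 and 17 of 23 in Cxcl9+ cells, beside 4.68%. In the Aif1-led cluster the lists parted for Cxcl9. The GBP list was higher by 0.86 (0.79 to 0.92) in its 54 Cxcl9+ cells with 7 of 20 genes, and the type I list by 0.22 (0.14 to 0.30) with 0 of 22 genes, beside 0.916% of all genes. Cxcl10+ cells of that cluster had 12 of 22 type I genes and 10 of 20 GBP-list genes higher, beside 2.75%. Within the endothelial cluster led by Ptprb, 8 of 22 GBP-list genes and 4 of 15 type I genes were higher in Cxcl10+ cells, beside 3.32%.

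Between the libraries, most genes of the GBP list were higher in NP in neutrophils, monocytes and endothelial cells, and most genes of the type I list in neutrophils. Stromal cells were not compared for these lists. A gene was counted when its pooled CPM differed at least 2-fold between the libraries. In neutrophils 14 of 16 GBP-list genes were higher, with a median log2 ratio of 2.58, and 16 of 22 type I genes with a median of 1.74. Over all 9539 genes 2.77% were higher and 1.74% lower, with a median of -0.13. The largest were the GBPs Gbp5 (4.93; 4.51 to 5.37), Gbp4 (4.46) and Gbp8 (4.00), and the antiviral genes Ifit3 (3.32), Rsad2 (3.09) and Ifit3b (3.06). Nos2, which encodes inducible nitric oxide synthase, was at -0.84. In monocytes 16 of 21 GBP-list genes were higher, at a median of 2.12, against 8 of 23 type I genes at 0.78, beside 2.64% of 10245 genes. Of the 21, 2 had under 3 saline UMIs. Iigp1, an immunity-related GTPase, had 0 saline UMIs and 482 NP UMIs, a log2 ratio of at least 6.40. In endothelial cells 19 of 22 GBP-list genes were higher at a median of 1.79 and 5 of 19 type I genes at 0.56, beside 1.4% of 9265 genes, led by Ciita (3.81; 2.68 to 5.27), the regulator of MHC class II genes, and Gbp5 (2.95). In T cells 3 of 19 GBP-list genes were higher (Iigp1 1.59, Gbp2b 1.13 and Gbp2 1.09), beside 0.946% of 8036 genes. In NK cells 0 of 5 were, beside 1.08% of 4349 genes.

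Among genes of IFN-γ production and response, Socs1, a feedback inhibitor of cytokine receptors, and Irf1, an interferon-induced transcription factor, had the highest ratios in neutrophils (2.67 and 1.59) and in monocytes (1.83 and 1.14). Ifngr1, a chain of the IFN-γ receptor, was at -0.56 in neutrophils and -0.55 in monocytes. This list had 3 of 11 genes 2-fold higher in neutrophils, 2 of 10 in monocytes, 0 of 8 in endothelial cells, 1 of 9 in T cells and 0 of 8 in NK cells, beside 2.77%, 2.64%, 1.4%, 0.946% and 1.08% of all genes in these classes. The same shares are the background of the counts that follow. Ifng itself was at 223 CPM in saline and 284 CPM in NP NK cells, a log2 ratio of 0.35 (0.05 to 0.65), and at 16.1 and 25.9 CPM in T cells, a ratio of 0.69 (0.18 to 1.21). The NK value was chosen after it was seen. The type I list had 0 of 14 genes higher in T cells and 0 of 5 in NK cells. Among other CXC chemokines, 4 of 5 were 2-fold higher in monocytes (2 with a minimum of 200 UMIs), led by the neutrophil attractants Cxcl1 (2.94) and Cxcl2 (2.71; 2.61 to 2.80) and by Cxcl16 (1.81), the ligand of CXCR6. In neutrophils it was 2 of 5 (Cxcl1 1.61 and Pf4 1.33), in endothelial cells 0 of 4, and in T and NK cells 0 of 1 each.

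Among the named classes, the receptor had its highest levels in pDCs, T cells and NK cells. Cxcr3 was at 135 CPM (88.6 to 196) in saline pDCs and 109 CPM (79.6 to 146) in NP pDCs, a log2 ratio of -0.30 (-1.02 to 0.44). It was detected in 14 of 18 saline pDCs (77.8%; 52.4% to 93.6%) and 23 of 34 NP pDCs (67.6%; 49.5% to 82.6%), and in 16.7% and 17.6% after thinning. No other class had so large a share. In T cells Cxcr3 had 109 UMIs in 48 of 507 saline cells and 134 UMIs in 50 of 417 NP cells. The level was 30.8 CPM (25.3 to 37.1) in saline and 43.4 CPM (36.4 to 51.4) in NP, a log2 ratio of 0.50 (0.12 to 0.88). Positive T cells were 9.47% (7.06% to 12.4%) in saline and 12.0% (9.03% to 15.5%) in NP, and 2.56% and 4.08% after thinning, with overlapping intervals. The mean per positive T cell was 2.27 and 2.68 UMIs. In NK cells 7 of 127 saline and 5 of 140 NP cells were positive (5.51% and 3.57%), with a log2 ratio of -1.22 (-2.80 to 0.24).

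In the other named classes no cell had more than 1 Cxcr3 UMI, apart from 1 saline neutrophil with 2. In unnamed clusters, cells reached 9 UMIs (1 NP cell of a cluster led by Ager) and 6 UMIs (a cluster led by Retnla, positive in 9 of 61 saline and 5 of 83 NP cells). Endothelial, stromal, epithelial and erythroid cells, alveolar macrophages and basophils had none in either library, and 0 of 1120 NP endothelial cells at a median of 3842 UMIs allows a share of up to 0.268%. Each of the 20 positive saline and 18 positive NP monocytes had 1 UMI, at 1.71 CPM (1.04 to 2.64) and 0.807 CPM (0.478 to 1.28), a log2 ratio of -1.08. Neutrophils were at 0.542 CPM (0.354 to 0.794) in saline and 0.457 CPM (0.228 to 0.818) in NP. Barcodes under 50 UMIs held Cxcr3 at 2.99 CPM in saline and 2.26 CPM in NP, above the levels of monocytes and neutrophils. The level among such barcodes is not the level that free RNA adds to a cell. The part of free RNA in those levels was not tested. Conventional dendritic cell-like phagocytes, a finer cluster with Xcr1, Clec9a and Cd209a among its leading genes, had Cxcr3 in 20% (9.58% to 34.6%; 9 of 45) of its cells in saline and 15.2% (6.34% to 28.9%; 7 of 46) in NP. Its levels of 22.2 CPM in saline and 26.2 CPM in NP lay between those of T and NK cells. In the order of levels of the named classes, pDCs were above T cells in both libraries. T and NK cells overlapped in saline (NK 18.1 CPM; 9.35 to 31.6) and not in NP (NK 7.78 CPM; 3.13 to 16.0).

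Within T cells Cxcr3 was uneven between clusters. The cluster led by Lef1, a gene of naive and resting T cells, had Cxcr3 in 3.54% of 311 saline and 3.02% of 232 NP cells. The cluster led by Cd3g and Cxcr6, the latter a receptor of effector and tissue-resident T cells, had it in 18.9% (13.7% to 25.1%) of 196 saline and 23.2% (17.4% to 30%) of 185 NP cells, a log2 ratio of 0.63 (0.22 to 1.04) in CPM. On a finer scale, 24 of 64 saline cells (37.5%) and 31 of 76 NP cells (40.8%) were positive in a cluster with the γδ T cell receptor gene Tcrg-C1, Il17a and Cxcr6 among its leading genes, which hemoglobin genes head. In a cluster with the proliferation genes Mki67 and Top2a among its leading genes the shares were 10 of 24 (41.7%) and 12 of 30 (40.0%). This cluster also had 14 endothelial markers at least 2-fold higher than the other T and NK cells, and the part of doublets in it was not tested. In a CD8 cluster led by Cd8b1 they were 8 of 82 and 4 of 60. In the largest, with Igfbp4, Lef1 and Cd4 among its leading genes, 0 of 197 saline and 0 of 131 NP cells were positive, with exact upper limits of 1.86% and 2.78%. In both libraries the exact intervals of the Tcrg-C1 and Mki67 clusters lay above these limits. The finer clusters led by Hspa1b and by Areg had no Cxcr3 UMI in either library.

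**Figure D5:**
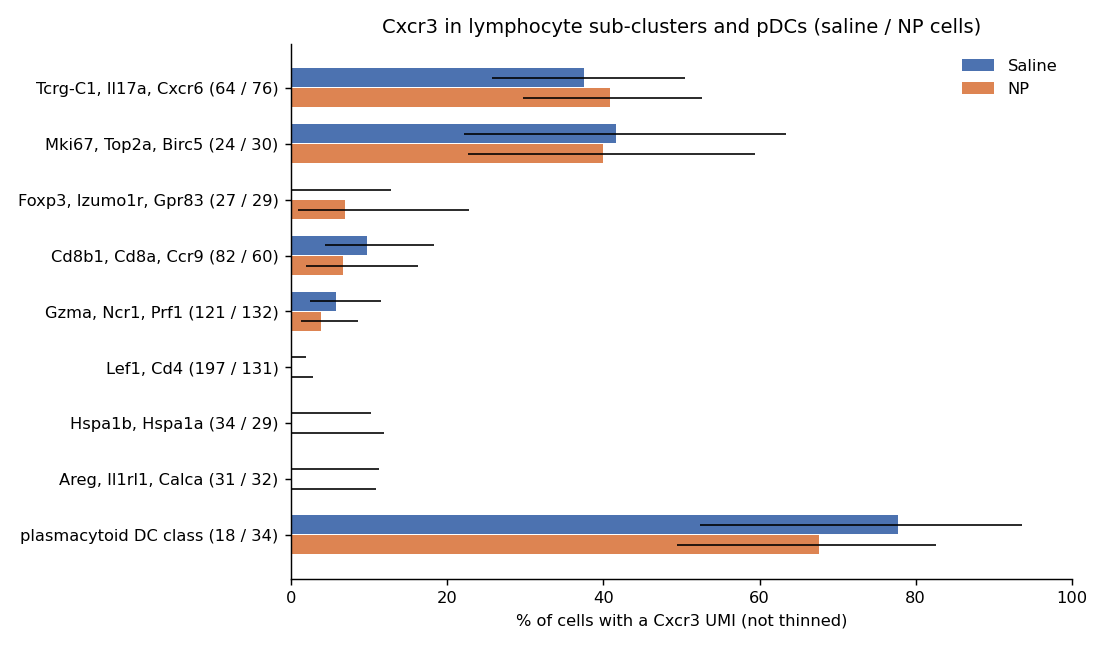
Share of cells with a Cxcr3 UMI (x axis, %, not thinned) in finer clusters of lymphocytes, named by some of their leading genes with the number of saline and NP cells, and in pDCs, with exact 95% intervals. Shares are 37.5% to 41.7% in the Tcrg-C1 and Mki67 clusters. They are 0% in the Lef1 and Cd4 cluster, the Hspa1b cluster and the Areg cluster, and saline and NP intervals overlap in every row. The Mki67 cluster also carried endothelial markers.

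Split by coreceptor transcripts, Cxcr3 was detected in 13 of 184 saline (7.07%) and 16 of 147 NP (10.9%) T cells with Cd4 alone, and in 17 of 105 (16.2%) and 14 of 99 (14.1%) with Cd8a or Cd8b1 alone. With neither it was in 18 of 213 (8.45%) and 17 of 165 (10.3%), and with both in 0 of 5 and 3 of 6. The levels in saline and NP were 27.4 and 35.2 CPM with Cd4 alone and 36.1 and 24.5 CPM with Cd8a or Cd8b1 alone. With neither they were 31.8 and 52.9 CPM. The 6 NP cells with both held 20 of the 134 NP UMIs. T cells with Foxp3, the regulatory T cell factor, had it in 6 of 39 (15.4%; 5.86% to 30.5%) and 10 of 36 (27.8%; 14.2% to 45.2%). By contrast, a finer cluster with Gpr83, Izumo1r and Foxp3 among its leading genes had 0 Cxcr3 UMIs in 27 saline cells and 2 UMIs in 29 NP cells. T cells with a γδ receptor gene had Cxcr3 in 12 of 59 (20.3%) and 10 of 48 (20.8%). The intervals of the 2 libraries overlapped in each split.

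T cells with Cxcr3 carried more effector and fewer naive transcripts than T cells without it, in both libraries. After thinning to 2000 UMIs, Nkg7, a cytotoxic granule gene, was in 47.9% of 48 Cxcr3+ and 10.0% of 458 Cxcr3- saline T cells, and in 52% of 50 and 12.0% of 366 NP T cells. Il2rb, the IL-2 and IL-15 receptor chain of effector and memory cells, was in 35.4% against 6.99% in saline and 38% against 7.65% in NP. Ccl5, a chemokine of effector cells, was in 31.2% against 3.93% in saline and 28% against 4.64% in NP. Ifng, among the list genes, was in 16.7% against 1.75% in saline and 18% against 1.91% in NP. Genes of naive and recirculating T cells were lower in Cxcr3+ cells. Igfbp4 was in 2.08% against 41.3% in saline and 2% against 38.5% in NP, Ccr7 in 14.6% against 45.4% and 16% against 39.6%, Lef1 in 18.8% against 57.6% in saline, and Satb1 in 26% against 48.9% in NP. By list, 8 of 10 effector genes in saline and 8 of 12 in NP were at least 2-fold higher in Cxcr3+ cells, beside 3.46% and 5.57% of all genes. Of 10 naive genes 4 in saline and 7 in NP were 2-fold lower, beside 4.25% and 6.0%. Of 8 regulatory T cell genes 2 in saline and 4 in NP were 2-fold higher, and Capg, a gene of that list, was in 18.8% against 11.8% of cells in saline and 40% against 16.4% in NP. Foxp3 itself was in 4.17% against 3.71% in saline and 8% against 4.37% in NP. Izumo1r, also of that list, was in 12.5% against 11.6% in saline and went the other way in NP, with 2% against 10.4%.

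Few genes of the receptor and lymphocyte lists differed 2-fold between the libraries. At the shares of all genes that did (T cells 0.946% higher and 0.784% lower, NK cells 1.08% each), lists of this size would hold few or none. The counts below that are not 0 exceed these shares, each through 1 or 2 genes. Of the genes for Gi proteins, arrestins, the receptor kinase Grk2, the atypical receptor Ackr3, which binds the related ligand CXCL11, and Dpp4, the protease that trims CXCL10, the counts past 2-fold were 0 in every class, in neutrophils (0 of 5 tested), monocytes (0 of 6), endothelial cells (0 of 7), T cells (0 of 6) or NK cells (0 of 4). Their largest ratio in T cells was -0.38 (-0.81 to 0.04) for Dpp4. Among lymphocyte lists, effector genes were 2-fold higher in NP in 1 of 13 in T cells (Ly6c2 1.21), 2 of 14 in NK cells (the chemokine Xcl1 2.29; 1.86 to 2.74, and Bhlhe40 1.10), and naive genes in 0 of 10 and 0 of 5. Regulatory T cell genes were higher in 0 of 8 in T cells and 1 of 3 in NK cells. Of other chemokine receptors 2 of 13 were higher in T cells (Cx3cr1 1.71 and Ccr10 1.06). In NK cells, of 7 tested, Cx3cr1 was at 1.05 and Ccr2 at -1.47 (-1.80 to -1.16).

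Across 24 pairs of class and library (12 classes), the 5 genes whose log2(CPM + 1) was most like each member by Pearson r, of 11827 genes, differed between the ligands. For Cxcl10 they were Ifit1 (0.72), Ifit3 (0.70), Irgm1 (0.69), Ifih1 (0.69) and Gbp5 (0.69), which are interferon-induced genes. For Cxcl9 they were A530013C23Rik (0.76), Oas1g (0.74), Gm26885 (0.73), Wnt6 (0.72) and the monocyte attractant Ccl2 (0.71). For Cxcr3 they were Sla2 (0.93), BC147527 (0.90), Cd28 (0.89), Cd4 (0.89) and St8sia1 (0.88). The r of the 2 ligands with each other was 0.53. The pairs share libraries and depth, and these are descriptions.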

How the data were processed

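Single-cell RNA was measured in 1 saline and 1 NP library. The deposited matrices hold UMI counts per gene and barcode, not normalized, which the authors made with Cell Ranger (6.0 in the submitters' processing notes), bcl2fastq and the mm10 genome. A barcode was kept if it had 500 to 5000 detected genes and a mitochondrial share under 7.5%, and doublets were not removed. Cells of both libraries were clustered together (2000 variable genes without the 3 members, 30 principal components, 20 neighbours, Leiden resolution 1) and clusters were named from marker genes. UMIs were summed per class and library and divided by the class total (CPM). Intervals were exact 95% Poisson (CPM), Clopper-Pearson (shares) and conditional binomial (ratios). For a ratio, counts under 3 were set to 3, and the limit given for a share of 0 is 3 counts of the total unless called exact. Shares were also computed after thinning each cell to 1000 UMIs, leaving out shallower cells. Members and gene lists were chosen with earlier results of these data known.

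A list gene was counted with at least 50 UMIs over the groups compared. Named from each list were up to 3 genes with the highest ratios and up to 2 with the lowest, from which examples are printed, and the 5 genes most like each member by Pearson r. With 1 library per condition no test was made. Alternatives were other limits on cells, Scrublet doublets (threshold 0.25), other clusterings, classes from each cell's marker score, other scalings, other thinning depths, subtraction of free RNA and leaving out the highest cell. Leaving out the shared barcodes, the Rsad2-led cluster or the Ccl5-led finer cluster was chosen after seeing the data. Promoters were RefSeq sequences. Pooled ratios with their intervals, thinning and the motif search were tested on simulated data, and the share interval against another routine. The simulated counts for ratios were independent, unlike the clumped UMIs of these genes. Clustering, naming and the comparison of positive with negative cells were not tested in this way. Clustering used scanpy 1.11.5, leidenalg 0.10.2 and scikit-learn 1.9.0, intervals used scipy 1.17.1, and tables and figures used pandas 2.3.3, numpy 2.4.6 and matplotlib 3.10.9 (Python 3.11.15).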

Additional observations from a re-analysis of the deposited data

Results flagged for a closer look

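The log2 ratio of Cxcl10 between NP and saline had opposite signs in different classes. It was 5.77 in neutrophils, 3.65 in endothelial cells, 2.45 in monocytes and at least 4.14 in stromal cells (against a floor of 3 saline UMIs, and 3.09 without the highest cell), against -3.46 in alveolar macrophages and -3.62 in pDCs. In the last 2 classes 1 saline cell held nearly all or all UMIs. The difference between classes was not tested.

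The ratio of Cxcr3 was 0.50 in T cells and -1.08 in monocytes, where each positive cell had 1 UMI. This difference was not tested either.

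Ligand RNA was also found in barcodes that the filter leaves out, in part of them at higher levels in the NP library beyond counting error. In barcodes under 50 UMIs, Cxcl9 was at 13.1 CPM (9.96 to 17.0) in NP and 1.15 CPM (0.373 to 2.68) in saline, and Cxcl10 at 22.8 CPM (18.6 to 27.8) and 2.99 CPM (1.59 to 5.11). In barcodes under 500 detected genes with at least 50 UMIs, Cxcl10 was at 21.2 CPM (16.6 to 26.5) in NP and 1.64 CPM (0.601 to 3.56) in saline. For Cxcl9 there, and for both ligands in barcodes over 5000 genes or over the mitochondrial limit, the intervals of the libraries overlapped. Over the mitochondrial limit Cxcl9 was lower in NP, at 2.74 CPM (0.890 to 6.39) against 5.54 CPM (2.03 to 12.1) in saline.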

How the results depend on the processing

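Of 337 values under alternatives, 294 stayed within the counting interval (counts within 1.5 times), 40 moved beyond it, and 3 with an interval on one side of 0 changed sign. Of those whose interval spans 0, Cxcr3 in pDCs was -0.30 and became 0.61, beyond its interval, and Cxcl10 in T cells ranged from -0.60 to 0.28, within it. Values below are log2 ratios of NP over saline unless named otherwise. Without the cell with the most UMIs in each library, Cxcl9 was 6.40 in all cells, 7.60 in monocytes and -0.57 in alveolar macrophages, and Cxcl10 was 3.80 in all cells, 6.90 in neutrophils, 3.47 in monocytes and 3.09 in stromal cells. The mean UMIs per positive cell were then 21.1 for Cxcl9 in NP neutrophils, 15 for Cxcl9 in NP monocytes, 1.93 (saline) and 19.3 (NP) for Cxcl10 in neutrophils, and 3.38 (saline) and 8.26 (NP) for Cxcl10 in monocytes. Without the Rsad2-led cluster, Cxcl10 was 2.58 in all cells and 3.09 in neutrophils. Cxcl9 in neutrophils then had 2 UMIs in each library, both set to 3, so its 1.25 gives only the ratio of the class totals. Without cells that Scrublet marked, Cxcl10 was 3.83 in all cells and 3.20 in stromal cells, and Cxcl9 in alveolar macrophages was -0.98. Neutrophils then held 30.2% of saline and 63.9% of NP Cxcl10, and monocytes held 70.9% of NP Cxcl9 and 32.1% of saline Cxcl10. Scrublet marked 2.19% of saline and 3.48% of NP cells, and 9 of the 105 Cxcl9+ and 15 of the 230 Cxcl10+ NP cells. With mitochondrial UMIs under 5%, Cxcl10 was 4.26 in all cells. As a mean over cells, Cxcl10 was 3.85 in all cells and 5.38 in neutrophils, and Cxcr3 was 0.037 in all cells. Relative to the median ratio of genes, Cxcl10 was 3.20 and Cxcr3 -0.061 in all cells. With cells assigned one by one from their marker scores, Cxcl10 was 7.75 in neutrophils and 3.09 in stromal cells, and Cxcr3 was 0.61 in pDCs. The share of positive cells, NP minus saline, was 1.71 percentage points for Cxcl10 in neutrophils at 1000 UMIs, 2.49 not thinned and 1.13 for at least 2 UMIs. For Cxcl9 in monocytes it was 2.31, and 1.38 at 500 UMIs, 4.42 not thinned and 0.86 for at least 2 UMIs. For Cxcl10 in monocytes it was 1.13, and 3.46 not thinned. With log2(CPM + 10), 3, 2 and 3 of the 5 genes most like Cxcl9, Cxcl10 and Cxcr3 remained. With a minimum of 200 UMIs, 2 other CXC chemokines were counted in monocytes and 2 type I genes in endothelial cells. The cause of these changes was not tested. Cxcr3 in T cells stayed between 0.41 and 0.62 over 15 alternatives. The mean over cells in stromal cells and Cxcl10 in alveolar macrophages without the highest cell gave no value. No paired analysis was possible because each condition has 1 library, and no replicate could be left out.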
